A study of Mus musculus with 6 samples.

Results

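The genes for the VEGF and angiopoietin ligands and their receptors were followed in whole mammary tumours: the ligands Vegfa, Vegfb, Vegfc, Pgf, Angpt1 and Angpt2 and the receptors Flt1, Kdr, Flt4 and Tek. They were chosen by name. Each of the 10 had exactly 1 probe set that the array annotation assigns to that gene alone, so 10 of the 19937 genes on the array are described here. The tumours came from 6 female FVBN mice carrying the MMTV-PyMT transgene, in which a viral promoter drives polyoma middle T antigen in the mammary epithelium. Tumour load was assessed before dosing, at an age of 75 to 90 days. There were 3 mice dosed with TMP195 at 50 mg/kg, an inhibitor of class IIa histone deacetylases, and 3 given the DMSO vehicle, both once a day into the abdomen, with 1 tumour taken per mouse. The sample descriptions give 5 days of dosing and the series description gives 2 weeks.

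VEGF ligands bind receptor tyrosine kinases that sit mainly on endothelial cells. VEGF-A acts chiefly through KDR (VEGFR2), which drives endothelial growth and leakiness. VEGF-B and placental growth factor bind FLT1 (VEGFR1), which also takes up VEGF-A, and VEGF-C acts through FLT4 (VEGFR3), the main receptor of lymphatic growth. Angiopoietin-1 activates TEK (TIE2) and steadies vessels. Angiopoietin-2 binds the same receptor and can block it, and it is released by endothelium that is being remodelled. The study reports altered tumour vessels under TMP195, and the question for these genes is whether their transcripts differed between the dosing groups.

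Values are log2 of the deposited array intensity, and differences are TMP195 minus DMSO on that scale, so a difference of 1 is a doubling. Median intensity over all probe sets lay between 44.8 and 46.4 in the 6 tumours, and precision is limited by having 3 arrays a group. TMP195 tumour 2 stood apart: 150 genes, or 0.752%, had a level there over 2-fold that of the next highest tumour, against 60 genes in DMSO tumour 2 and at most 12 in any of the other 4. Results that rest on TMP195 tumour 2 are given with and without it. The mean of 12 epithelial markers was 10.1 to 10.2 in every tumour. With no other tissue to compare, this cannot test the label of a mammary tumour. Not all of these markers were as level as their mean. In TMP195 tumour 2, Krt7 was at 10.01 and Cldn4 at 8.28, against 8.99 to 9.23 and 8.53 to 9.21 in the other tumours. Nothing in the labels says whether the mice shared a litter or a day.

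No member passed an adjusted p of 0.05 in limma over all genes, where 0.0% of genes did, and none reached an unadjusted p under 0.05, where 2.52% of genes did (1.18% higher and 1.34% lower under TMP195). The smallest unadjusted p among the members was 0.115, for Kdr, and every adjusted p was 1.00. Differences were above 0 for 9 of the 10 members and for 49.5% of all genes, and the median difference was 0.22 over the members and -0.0014 over all genes. Without TMP195 tumour 2 the median over the members was 0.088. In 1 member, Flt4, the groups did not overlap, where 6.68% of genes showed no overlap, 3.47% with TMP195 higher. That count was 2 without TMP195 tumour 2 and 3 without any one of the other 5 tumours, where groups of 3 and 2 left 14.0% to 18.5% of all genes without overlap.

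**Figure D1:**
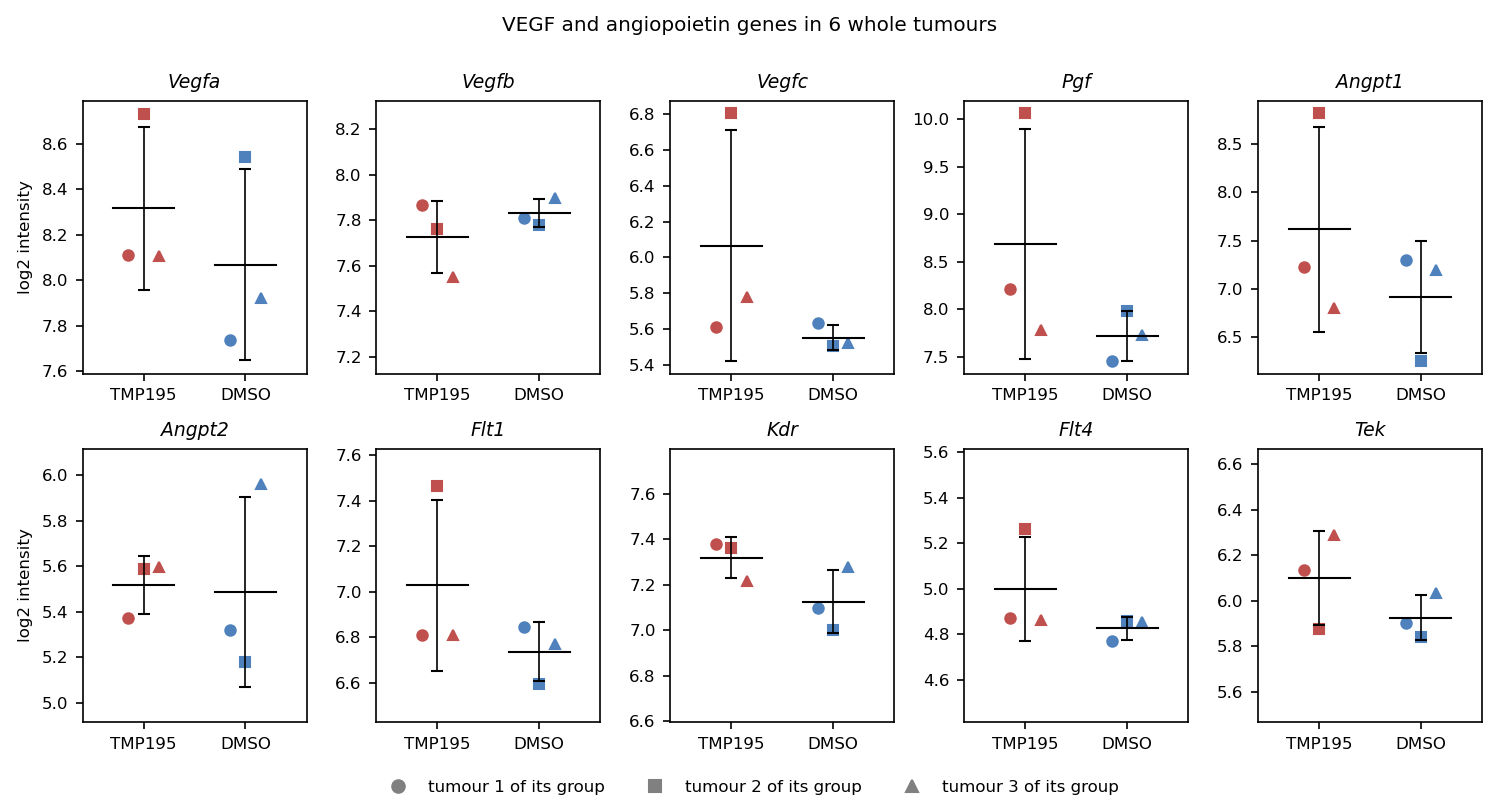
Log2 intensity (y axis) of each gene in the TMP195 tumours (left, red) and the DMSO tumours (right, blue). Symbols mark the tumour number, the horizontal line is the group mean and the bar the SD of 3 tumours. The red square, TMP195 tumour 2, is at the top of Vegfa, Vegfc, Pgf, Angpt1, Flt1 and Flt4, and lies inside the range of the DMSO tumours in Tek and Angpt2.

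Placental growth factor had the largest difference of the 10 genes. Pgf was at 8.21, 10.06 and 7.78 in TMP195 tumours 1, 2 and 3, against 7.45, 7.98 and 7.72 in DMSO tumours 1, 2 and 3. TMP195 tumour 2 was 3.61-fold above the next tumour, TMP195 tumour 1 was also above every DMSO tumour, and TMP195 tumour 3 lay among them. The group means were 8.69 ± 1.21 under TMP195 and 7.72 ± 0.26 under DMSO (SD, n = 3 each), a difference of 0.97 with a 95% interval from -0.33 to 2.27, or 1.96-fold. Without TMP195 tumour 2 the difference was 0.28.

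Vegfa, the principal growth factor of blood vessels and a gene induced by low oxygen, split the tumours across the groups. It was at 8.11, 8.73 and 8.11 in the TMP195 tumours, against 7.74, 8.54 and 7.92 in the DMSO tumours. The tumour numbered 2 was the highest of its group in both groups, and the remaining TMP195 tumours lay between the DMSO values. Means were 8.31 ± 0.36 under TMP195 and 8.07 ± 0.42 under DMSO (SD, n = 3 each), a difference of 0.25 with an interval from -0.36 to 0.85. It was 0.040 without TMP195 tumour 2, 0.083 without DMSO tumour 1 and 0.48 without DMSO tumour 2.

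Vegfb, a ligand of FLT1 that is abundant in muscle and fat, was the member with the opposite sign. Its values were 7.86, 7.76 and 7.55 in the TMP195 tumours and 7.81, 7.78 and 7.90 in the DMSO tumours. TMP195 tumours 2 and 3 lay below every DMSO tumour and TMP195 tumour 1 lay among them. The difference was -0.10 with an interval from -0.36 to 0.15, and it was -0.016 without TMP195 tumour 3 and -0.17 without TMP195 tumour 1.

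Vegfc, the ligand of lymphatic growth, was nearly level in the DMSO tumours. It was at 5.61, 6.80 and 5.78 in the TMP195 tumours, against 5.63, 5.50 and 5.52 in the DMSO tumours. TMP195 tumour 2 was 2.04-fold above the next tumour, TMP195 tumour 3 was just above the DMSO tumours and TMP195 tumour 1 was inside their range. Means were 6.07 ± 0.65 under TMP195 and 5.55 ± 0.070 under DMSO (SD, n = 3 each), and the difference was 0.51 with an interval from -0.19 to 1.21. Without TMP195 tumour 2 it was 0.14.

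Angiopoietin-1, the activating ligand of TEK, had its highest and its lowest value in the tumours numbered 2. Angpt1 was at 7.23, 8.82 and 6.81 in the TMP195 tumours, against 7.30, 6.25 and 7.19 in the DMSO tumours. TMP195 tumour 2 was 2.87-fold above the next tumour and DMSO tumour 2 was the lowest, while the other 4 tumours lay between 6.81 and 7.30 with both groups mixed. The difference was 0.70 with an interval from -0.57 to 1.98, or 1.63-fold. It was 0.10 without TMP195 tumour 2, 0.37 without DMSO tumour 2 and 1.11 without TMP195 tumour 3.

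Angpt2 was at 5.37, 5.59 and 5.59 in the TMP195 tumours, against 5.32, 5.18 and 5.96 in the DMSO tumours. The highest and the lowest tumour were both DMSO tumours, and all 3 TMP195 tumours lay between them. Means were 5.52 ± 0.13 under TMP195 and 5.49 ± 0.42 under DMSO (SD, n = 3 each), a difference of 0.030 with an interval from -0.46 to 0.52. Within a tumour, Angpt2 minus Angpt1 was -1.86, -3.24 and -1.21 under TMP195 and -1.98, -1.07 and -1.23 under DMSO, where only the difference between groups can be read, since these are different probe sets. That difference was -0.67 (exact two-sided permutation test, p = 0.5, where groups of 3 cannot go below 0.1), and -0.11 without TMP195 tumour 2.

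**Figure D2:**
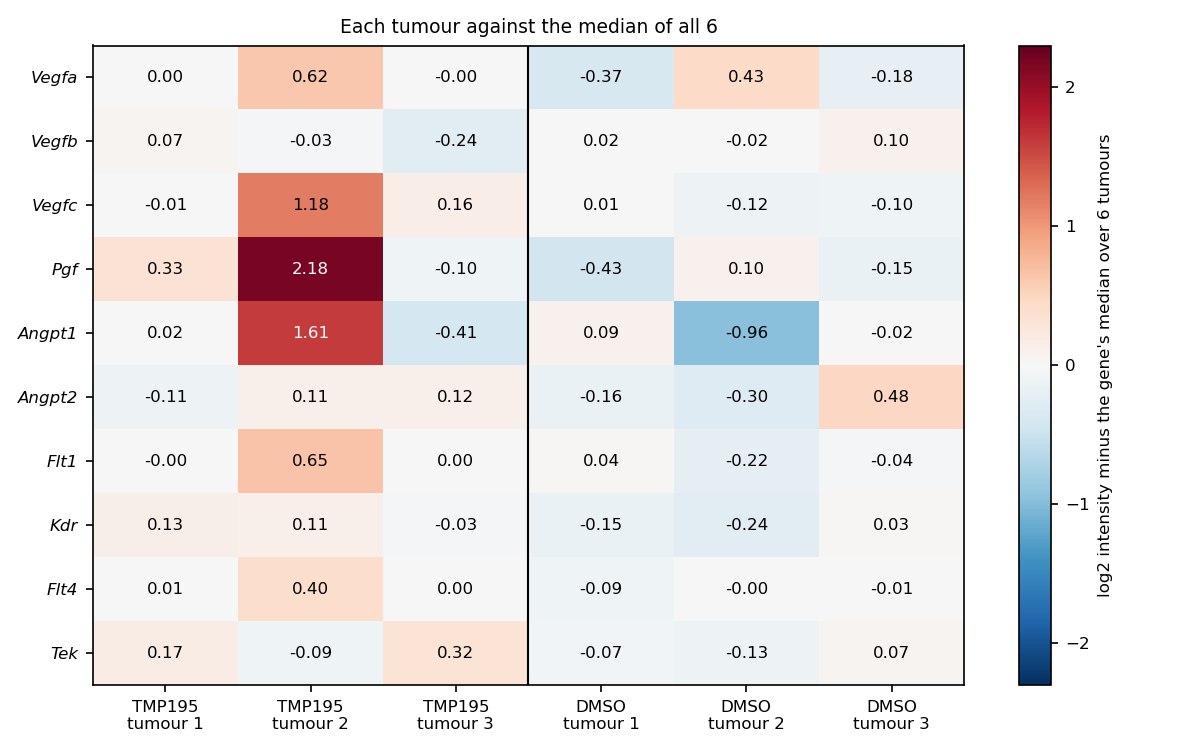
Each cell gives log2 intensity minus that gene's median over the 6 tumours, with TMP195 tumours in the left 3 columns and DMSO tumours in the right 3. The column of TMP195 tumour 2 holds the strongest positive values, 2.18 for Pgf, 1.61 for Angpt1 and 1.18 for Vegfc, and the lowest value is Angpt1 in DMSO tumour 2, at -0.96.

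TMP195 tumour 2 was the highest of the 6 tumours for 6 of the 10 members, where 25.4% of all genes were highest there. It was more than 2-fold above every other tumour for 3 members, where 0.752% of all genes were: the ligand genes Pgf, Angpt1 and Vegfc. A difference of at least 1.5-fold between the groups was seen in Pgf and Angpt1 and in 1.27% of all genes (0.502% with TMP195 higher). The 6 ligands averaged 7.07, 7.96 and 6.94 in the TMP195 tumours and 6.88, 6.87 and 7.04 in the DMSO tumours. Adipocyte markers were lowest in TMP195 tumour 2, at a list mean of 5.20 against 6.18 to 8.41 in the other 5 tumours, and all 11 measured adipocyte markers were lower under TMP195, by a median of -0.92, or -0.10 without that tumour. Skeletal muscle markers were all 12 lower under TMP195. Their list mean was 7.94 in DMSO tumour 2, against 4.69 and 4.60 in DMSO tumours 1 and 3. It was 4.68, 4.64 and 5.05 in the TMP195 tumours, so the direction of the list mean rests on DMSO tumour 2. The part of these tissues in the members' values was not tested.

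**Figure D3:**
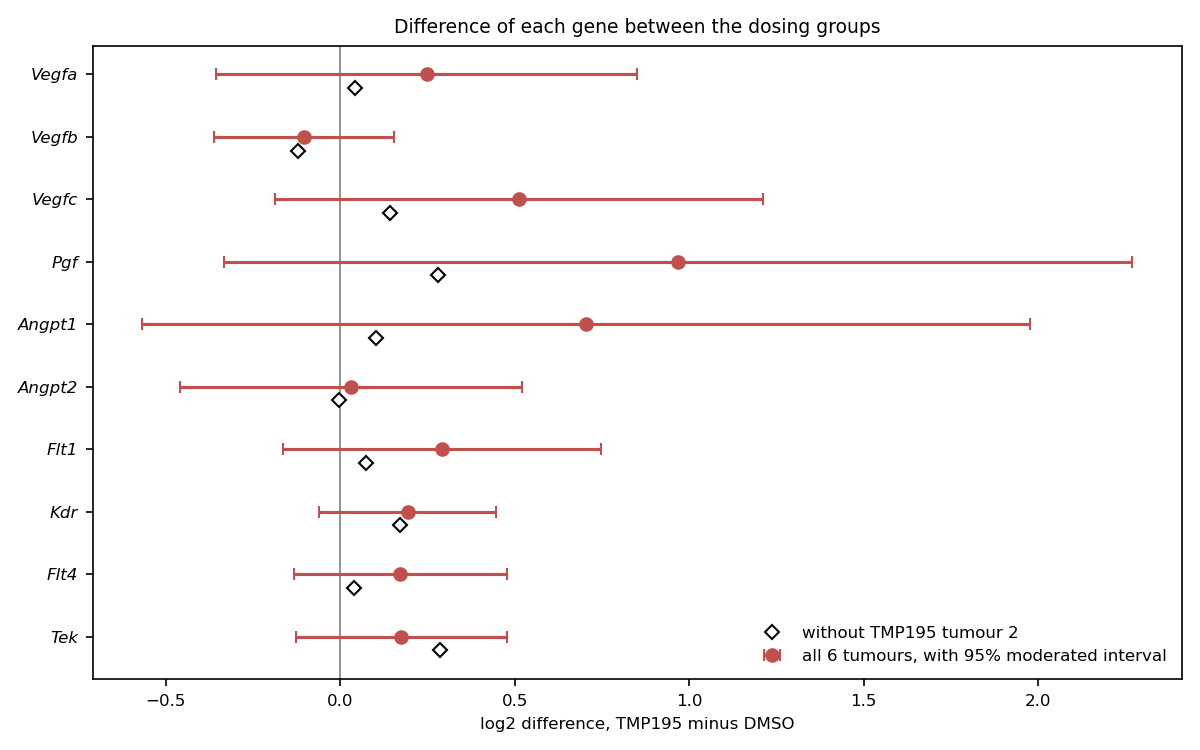
The x axis is the log2 difference, TMP195 minus DMSO, for each gene. Filled points with bars are all 6 tumours with the 95% moderated interval, every one of which holds 0, and open diamonds leave out TMP195 tumour 2. Pgf, Angpt1 and Vegfc move toward 0 by the largest steps when that tumour is left out, while Kdr stays at 0.17 and Tek is at 0.29.

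All 4 receptor genes were higher on average under TMP195, by 0.17 to 0.29, with every interval holding 0. In whole tumours, a difference in the number of endothelial cells and one in transcript per cell cannot be told apart. Flt1, the receptor of placental growth factor and VEGF-B, was at 6.81, 7.46 and 6.81 in the TMP195 tumours, against 6.85, 6.59 and 6.77 in the DMSO tumours. TMP195 tumour 2 alone was above the DMSO tumours, by 1.53-fold over the next tumour. The difference was 0.29 (interval -0.16 to 0.75), and 0.073 without that tumour.

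Kdr, the main signalling receptor of VEGF-A, had the smallest unadjusted p of the members, and its difference was 0.17 without TMP195 tumour 2. It was at 7.38, 7.36 and 7.22 in the TMP195 tumours, against 7.10, 7.00 and 7.28 in the DMSO tumours. TMP195 tumours 1 and 2 were above every DMSO tumour, and TMP195 tumour 3 was below DMSO tumour 3. Means were 7.32 ± 0.090 under TMP195 and 7.12 ± 0.14 under DMSO (SD, n = 3 each), a difference of 0.19 with an interval from -0.061 to 0.45, or 1.14-fold. Leaving out single tumours gave 0.13 to 0.27.

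Flt4, the receptor of VEGF-C, was at 4.87, 5.26 and 4.86 in the TMP195 tumours, against 4.77, 4.86 and 4.85 in the DMSO tumours. Every TMP195 tumour was above every DMSO tumour, but TMP195 tumour 3 and DMSO tumour 2 were both at 4.86 and nearly equal. The difference was 0.17 (interval -0.13 to 0.48) and 0.040 without TMP195 tumour 2, and the groups overlapped with the arrays centred on their medians or normalised by cyclic loess. Under cyclic loess the 1 member without overlap was Vegfc, where 7.40% of all genes had none. Tek, the angiopoietin receptor, was at 6.13, 5.88 and 6.29 in the TMP195 tumours, against 5.90, 5.84 and 6.03 in the DMSO tumours. TMP195 tumours 1 and 3 were the highest and TMP195 tumour 2 lay among the DMSO tumours, whereas that tumour was the highest for Flt1 and Flt4. Its difference was 0.17 (interval -0.13 to 0.48), 0.29 without TMP195 tumour 2 and 0.080 without TMP195 tumour 3.

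Since tumours hold varying amounts of vessel, each receptor was also set against the mean of 18 blood endothelial markers of the same tumour. These markers averaged 6.50, 6.45 and 6.34 in the TMP195 tumours and 6.38, 6.26 and 6.49 in the DMSO tumours. Kdr minus that mean was 0.88, 0.91 and 0.87 in the TMP195 tumours, against 0.72, 0.74 and 0.79 in the DMSO tumours. Every TMP195 tumour was above every DMSO tumour on this scale, by 0.14 on average, and the difference lay between 0.12 and 0.16 with each tumour left out. The exact two-sided permutation test gave p = 0.1 for Kdr, the smallest that groups of 3 allow, and 0.5 after Benjamini-Hochberg adjustment over the 5 within-tumour measures. After the same subtraction, 4.26% of all genes had groups that did not overlap, 0.938% with TMP195 higher, and of the members only Kdr, higher, and Vegfb, lower, were among them.

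On this scale Flt1 was at 0.31, 1.01 and 0.47 in the TMP195 tumours, against 0.47, 0.33 and 0.28 in the DMSO tumours, and the groups overlapped. The difference was 0.24 for Flt1, 0.12 for Flt4 and 0.12 for Tek, with exact permutation p of 0.4, 0.6 and 0.7 and an adjusted p of 0.7 each. Without TMP195 tumour 2 these differences were 0.028 for Flt1, -0.0052 for Flt4 and 0.24 for Tek.

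**Figure D4:**
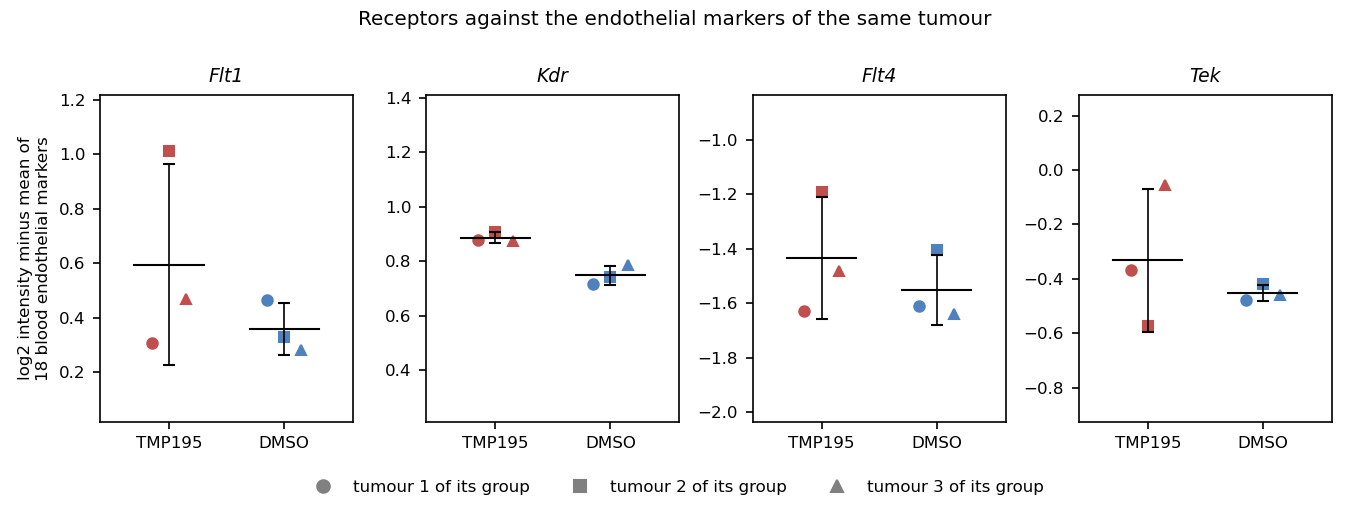
Log2 intensity of each receptor minus the mean of 18 blood endothelial markers in the same tumour (y axis, a span of 1.2 in each panel), TMP195 left and DMSO right, with group mean and SD of 3 tumours. In Kdr the TMP195 tumours sit between 0.87 and 0.91 and the DMSO tumours between 0.72 and 0.79, and in the other 3 panels the groups overlap.

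Promoter windows of the members were read from RefSeq (GRCm38.p6), 250 bases before to 50 after a listed start, and 8 of the 10 members matched. Those of Pgf and Flt1 are shown as a ligand and its receptor that were both highest in TMP195 tumour 2, and that of Kdr as one of the receptors that were not (Tek is the other). Capitals mark the hypoxia response core GCGTG on either strand, so that CACGC is its reverse complement.
Pgf (chr12:85177264-85177563, minus strand): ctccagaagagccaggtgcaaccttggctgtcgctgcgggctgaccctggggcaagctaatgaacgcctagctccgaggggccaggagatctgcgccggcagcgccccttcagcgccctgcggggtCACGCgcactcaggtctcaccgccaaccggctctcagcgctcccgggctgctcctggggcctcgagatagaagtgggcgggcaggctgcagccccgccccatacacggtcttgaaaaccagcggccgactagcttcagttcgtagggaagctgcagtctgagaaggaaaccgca
Flt1 (chr5:147725962-147726261, minus strand): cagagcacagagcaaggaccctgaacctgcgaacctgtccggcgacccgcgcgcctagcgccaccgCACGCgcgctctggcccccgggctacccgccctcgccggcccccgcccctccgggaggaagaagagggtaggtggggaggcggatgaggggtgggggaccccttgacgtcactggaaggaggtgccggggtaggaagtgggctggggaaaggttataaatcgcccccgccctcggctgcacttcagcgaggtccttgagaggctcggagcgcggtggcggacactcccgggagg
Kdr (chr5:75978406-75978705, minus strand): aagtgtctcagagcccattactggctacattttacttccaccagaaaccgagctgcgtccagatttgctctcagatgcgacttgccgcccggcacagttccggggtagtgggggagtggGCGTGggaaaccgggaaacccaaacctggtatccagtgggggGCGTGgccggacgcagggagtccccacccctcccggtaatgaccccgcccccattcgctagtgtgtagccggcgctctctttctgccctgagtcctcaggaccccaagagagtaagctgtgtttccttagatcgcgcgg
The core occurred 1 time in the Pgf window shown, 1 time in that of Flt1 and 2 times in that of Kdr, and 32.4% of all 32851 promoter windows of this length hold it. The other hypoxia core, ACGTG, is found in 19.6% of windows and in none of these 3. Pgf has a second, downstream window in the table, with neither core and no GC box. The upstream one of the Vegfa windows had neither core and the downstream one had 1 of each, and the Vegfc window had none. The windows of Flt4 and Tek also had neither core, and that of Tek had no GC box. Either core was in 5 of the 10 windows of the members and in 43.8% of all windows. The members' windows were 52% to 75.3% G and C, against a median of 52.7% over all windows. The GC box GGGCGG, found in 35.7% of windows on either strand, occurred in all 3 windows shown, and the TATA box TATAAA, found in 13.6%, occurred in that of Flt1. The MEF2 site, searched because class IIa deacetylases bind MEF2 factors, occurred in none of the 10 windows of the members and in 3.19% of all windows. A match describes the letters of the window and is not a binding site.

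Genes of the response to low oxygen, those of its transcription factors among them, were compared because Vegfa is induced by low oxygen. Of 18 measured, 15 were higher and 3 lower under TMP195, with a median difference of 0.12, and none passed limma's test over all genes or an unadjusted p of 0.05. Without TMP195 tumour 2 the median was 3.9e-04. The list mean was 8.05, 8.44 and 8.09 in the TMP195 tumours and 7.94, 8.28 and 8.01 in the DMSO tumours, so the tumour numbered 2 was the highest of each group, as in Vegfa. In a count made after the values were seen, 8 of the 18 genes had their 2 highest values in these 2 tumours, where 10.4% of all genes did. Among them Car9, a carbonic anhydrase gene of low-oxygen cells, was at 6.76, 7.57 and 6.94 in the TMP195 tumours and at 6.82, 7.32 and 6.60 in the DMSO tumours. Egln3, an oxygen-sensing hydroxylase, had the smallest p of the list, with a difference of 0.70 ± 0.41 (SE), and 0.22 without TMP195 tumour 2. The glucose transporter gene Slc2a1 and the hexokinase gene Hk2 differed by 0.13 ± 0.10 and -0.18 ± 0.14 (SE).

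Genes that mark VEGF-stimulated endothelium and sprouting tip cells were higher in 9 of 10, with a median difference of 0.22 that was 0.16 without TMP195 tumour 2. None passed the test. In 3 of them the groups did not overlap with TMP195 higher, as in 3.47% of all genes. Unc5b, a netrin receptor of tip cells, was at 6.23, 6.94 and 6.31 in the TMP195 tumours, against 6.05, 6.07 and 6.19 in the DMSO tumours, a difference of 0.39 ± 0.19 (SE). Cxcr4, a chemokine receptor that leukocytes carry as well, was at 8.11, 8.54 and 8.08 in the TMP195 tumours, against 8.04, 7.09 and 7.96 in the DMSO tumours, a difference of 0.55 ± 0.27 (SE). Apln, a peptide ligand secreted by tip cells, was at 7.27, 7.35 and 7.43 in the TMP195 tumours, against 6.92, 7.25 and 7.20 in the DMSO tumours. Its difference was 0.23 with or without TMP195 tumour 2. Unc5b was at 0.17 without that tumour and Cxcr4 at 0.40.

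Among the partners of these pathways, 10 of 17 measured genes were higher and 7 lower, with a median difference of 0.036, and none passed the test or an unadjusted p of 0.05. The co-receptors of VEGF, Nrp1 and Nrp2, differed by 0.036 and -0.065. Tie1, the partner receptor of TEK, was at 6.45, 6.38 and 6.51 in the TMP195 tumours, against 6.39, 6.14 and 6.43 in the DMSO tumours, a difference of 0.13 ± 0.11 (SE). Ptprb, a phosphatase that restrains TEK, was lowest in TMP195 tumour 2, at 5.94, and differed by -0.16 (0.11 without that tumour). The further ligands Vegfd and Angpt4 differed by -0.17 and -0.12.

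Downstream of the receptors the partners were spread around 0. The signalling enzyme Plcg1 differed by 0.11, the adaptors Shb and Sh2d2a by 0.035 and 0.095, the nitric oxide synthase Nos3 by 0.092 and the kinase Akt1 by -0.016. Foxo1, a transcription factor that TEK signalling holds in check and that drives Angpt2 in endothelium, was at 9.19, 9.91 and 9.06 in the TMP195 tumours, against 9.06, 8.61 and 9.11 in the DMSO tumours. Its difference was 0.46 ± 0.25 (SE), and 0.20 without TMP195 tumour 2. Dok2, an adaptor that binds TEK and is also abundant in leukocytes, differed by -0.24 ± 0.12 (SE), the smallest p of the list, and by -0.13 without that tumour. The angiogenesis inhibitors Thbs1, Thbs2, Col18a1 and Adamts1 differed by -0.093, 0.074, 0.044 and 0.42, and Adamts1 was at 7.83 in TMP195 tumour 2 and between 6.12 and 6.95 in the others. Without that tumour the differences of Thbs1, Thbs2, Col18a1 and Adamts1 were 0.19, -0.22, -0.058 and 0.010, so the sign turned in the first 3. It also turned for Nrp1, at -0.019, and Akt1, at 0.0023.

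Markers of the vessel cells were counted beside these genes. Blood endothelial markers were higher in 11 of 18, with a median difference of 0.092, and Sox17, a transcription factor of arterial endothelium, reached an unadjusted p under 0.05 on the lower side, at -0.36 ± 0.14 (SE). Icam2 and Podxl, surface proteins of endothelium, differed by 0.21 ± 0.10 and 0.26 ± 0.13 (SE), and were at 0.16 and 0.13 without TMP195 tumour 2. In these 3 markers the groups did not overlap, as in 6.68% of all genes. Pericyte markers were split 5 to 5, with a median difference of -0.0026. All 5 measured lymphatic markers were lower, with differences from -0.49 for Mmrn1 to -2.6e-04 for Pdpn. Their median was -0.28, or -0.11 without TMP195 tumour 2. Mmrn1 and Reln were also of low mean intensity, at the 16.1 and 29.8 percentiles of all genes. Prox1, the master regulator of lymphatic identity, was at 6.12, 4.32 and 6.53 in the TMP195 tumours, against 5.81, 5.80 and 6.53 in the DMSO tumours. Its difference was -0.39, and 0.28 without TMP195 tumour 2, where it was lowest and Vegfc and Flt4 were highest. No other measured lymphatic marker was lowest in that tumour. Lyve1 was lowest in DMSO tumour 1, Pdpn in DMSO tumour 2, and Mmrn1 and Reln in TMP195 tumour 3. Macrophage markers were lower in 10 of 11 and fibroblast markers in 7 of 8, with median differences of -0.12 and -0.13, and none passed the test over all genes. Without TMP195 tumour 2 these medians were -0.20 and 0.043. Mertk, a receptor by which macrophages take up dying cells, reached an unadjusted p under 0.05 on the lower side, at -0.47 ± 0.17 (SE), and was at -0.36 without that tumour.

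**Figure D5:**
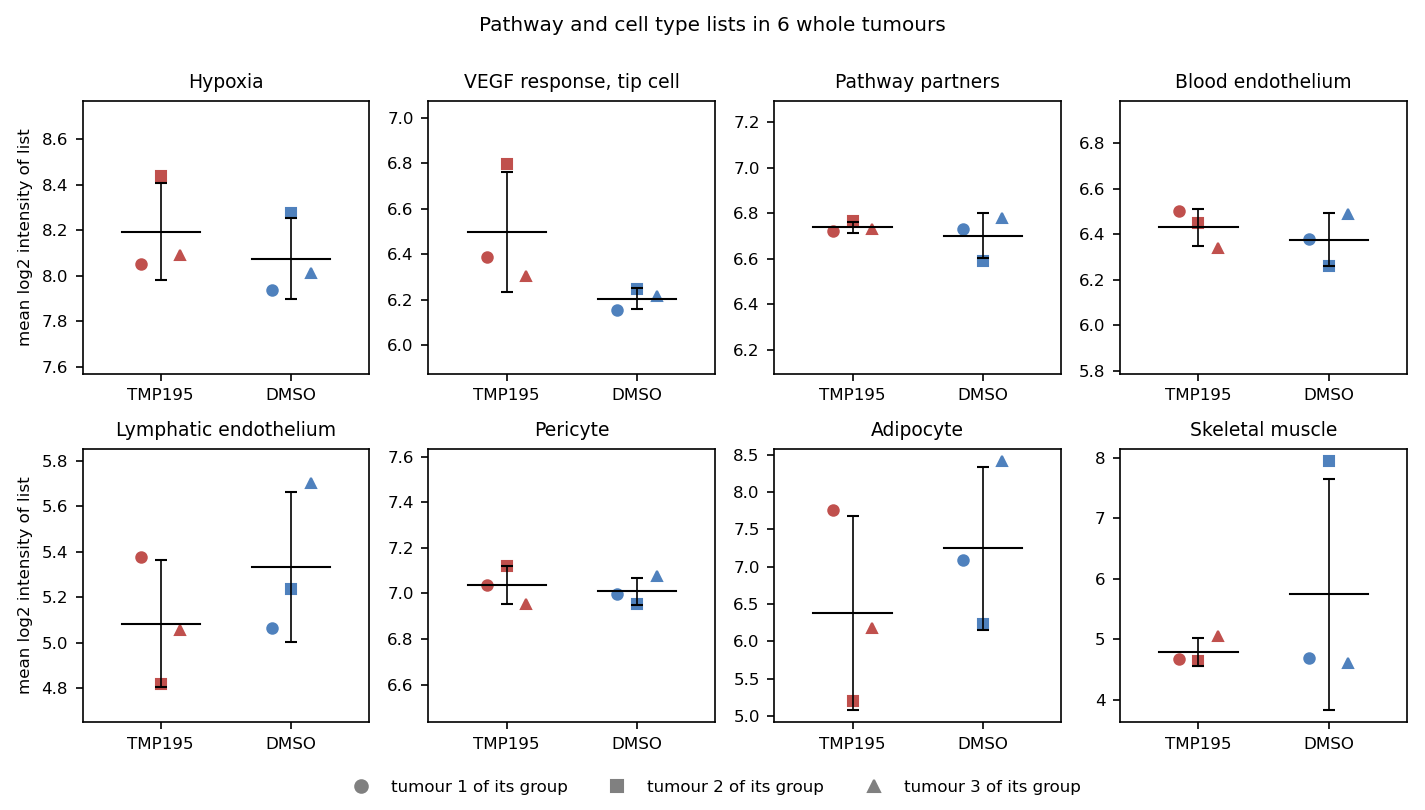
Mean log2 intensity of 8 gene lists (y axis, scaled by panel) in TMP195 tumours (left) and DMSO tumours (right), with group mean and SD of 3 tumours. Hypoxia genes are highest in the square, tumour 2, of each group, adipocyte markers are lowest in TMP195 tumour 2, and the skeletal muscle mean of 7.94 belongs to DMSO tumour 2.

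The genes whose profiles over the 6 tumours were most like each member were named by the root mean square difference after each gene's own mean was taken off, among 13946 genes, for the 6 members whose SD over the tumours was at least 0.2. Kcne3, a potassium channel subunit of tip cells, was the nearest to Pgf at 0.085, with 6.67, 8.31 and 5.98 in the TMP195 tumours and 5.80, 6.22 and 6.01 in the DMSO tumours, and Frem2 followed at 0.20. Angpt1 was nearest to Ndp, which encodes the vessel growth factor norrin, at 0.13, and to Mir140 at 0.16. Flt1 was nearest to Dock9 at 0.043 and to Tnfaip3, an inhibitor of inflammatory signalling, at 0.045. Vegfc was nearest to Prkar1a, a regulatory subunit of protein kinase A, at 0.041 and to Jph1 at 0.061. Vegfa was nearest to Eda2r at 0.069 and Lmcd1 at 0.072, and Angpt2 to Zfp931 at 0.11 and Sqor at 0.12. These are descriptions over 6 tumours. TMP195 tumour 2 is the highest of them for all the genes named here beside Pgf, Angpt1, Vegfc, Flt1 and Vegfa. That follows from the choice of genes, since these members are themselves highest there.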

How the data were processed

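RNA from 6 whole tumours was hybridised to Affymetrix arrays. Per the submitters' processing notes, the authors summarised the arrays with RMA in Affymetrix Power Tools, with no version or filter stated. These deposited values are intensity, taken as linear because they run from 0.482 to 8873, and were turned to log2 here; their scale and any centring are not stated. Of 27359 probe sets, 21784 had 1 gene symbol in the platform annotation (1620 several, 3955 none). The row with the highest mean stood for a gene.

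limma 3.58.1 (R 4.3.3) was fitted to all 19937 genes without covariate or filter, two-sided, with Benjamini-Hochberg adjustment; all 10 members would pass a filter at the 30th percentile. Its pipeline was tested on simulated data: 84.7% of genes changed 2-fold were recovered. That share is over all changed genes, and recovery at an SE as wide as that of Pgf (0.55) or Angpt1 (0.54) was not tested. Each gene's simulated spread was the same in every array, so no array stood apart as TMP195 tumour 2 did. Python 3.11.15 with pandas 2.3.3 and matplotlib 3.10.9 did the rest. Vash1, Ccl21a and Cfd were not measured on a probe set of their own. The members and lists were chosen with earlier results of these data known. All members and pathway partners were named, with up to 3 genes of the other lists by unadjusted p. The 2 nearest profiles of each member with an SD of at least 0.2 were named as well. Car9, Krt7, Pdpn and Reln fall outside these rules and were named after their values were seen. Tumours with the same number did not deviate together (correlations of deviations over genes of -0.21, -0.063 and -0.097), so no pairing was assumed.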

Additional observations from a re-analysis of the deposited data

How the results depend on the processing

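No member passed an adjusted p of 0.05 under any of the alternatives (tumours left out, array weights, probe sets averaged per gene, a filter at the 30th percentile, cyclic loess, median centring, a prior with a trend and robust fit, and the tumour number as a replicate block), and the smallest adjusted p was 0.963. In limma with all tumours, 0 members had an unadjusted p under 0.05. In this balanced design the replicate block cannot change a difference, so that of Pgf stayed at 0.97, but it changes the SE. The SE fell from 0.25 to 0.11 for Vegfa and from 0.55 to 0.39 for Pgf, and rose from 0.54 to 0.61 for Angpt1. With the block, 0 members were past the threshold. Of 140 differences under alternatives, 133 kept their direction, and 8 of the 10 members never changed sign. The replicate block, the trended and robust prior, the 30th percentile filter and probe set averaging left every member's difference unchanged by construction. They are counted among the 140 and are no test of direction. Angpt2 was -0.19 with array weights, and -0.12 to 0.27 with single tumours left out. Without both tumours numbered 2, Angpt2 was -0.16, Angpt1 -0.23 and the change of Angpt2 minus Angpt1 0.072. Against the endothelial markers, single tumours left out gave -0.0052 to 0.21 for Flt4 and -0.020 to 0.24 for Tek. The count of members without overlap was 0 with median centring (6.40% of all genes), 2 to 3 with single tumours left out (14.0% to 18.5%) and 4 without both tumours numbered 2 (28.8%), where fewer tumours make overlap rarer. With cyclic loess it was 1 (7.40%), Vegfc in place of Flt4. The cause of the other changes was not tested. The median difference of the members lay between 0.083 and 0.30. With 3 arrays a group, the median half-width of a gene's 95% interval over all genes was 1.23-fold. Pgf, Angpt1 and Vegfc had wider log2 intervals, from -0.33 to 2.27, -0.57 to 1.98 and -0.19 to 1.21. That of Kdr, from -0.061 to 0.45, was narrower than the median.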
